A study of Capra aegagrus with 10 samples.

Results

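The miRNAs described here are miR-103, miR-107, miR-26a and miR-26b, which have been studied in the milk fat synthesis of the goat mammary gland. Every row of the deposited small RNA table that carries 1 of these names with the goat prefix was taken, with any arm suffix. This gave 6 of the 1403 miRNAs in the table, all 6 among its 369 known miRNAs: chi-miR-103-3p, chi-miR-107-3p, chi-miR-26a-5p, chi-miR-26a-3p, chi-miR-26b-5p and chi-miR-26b-3p. The rows were found by name alone. The libraries came from mammary gland cells of a goat labelled Capra aegagrus, breed Lanshan dairy goat, grown in 3D culture. They fall into 5 groups of 2: cells without virus (Blank), a virus labelled Lv5NC, a virus carrying the long noncoding RNA lncRNA55666 (OV55666), a virus labelled Lv3NC, and a knockdown virus against the same RNA (KD553). The design text lists 5NC beside overexpression and 3NC beside knockdown, and they were read as the control viruses of these. The labels do not say whether the libraries of a group came from separate cultures or animals, so p-values measure the spread between these libraries, which may be technical. The level of lncRNA55666 itself is not measured by small RNA sequencing, so how far it was raised or lowered was not analysed here.

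A mature miRNA guides an Argonaute protein to messenger RNAs that pair with its seed, the stretch near its 5′ end, and lowers their output. miR-103 and miR-107 are nearly identical in sequence, share a seed, and lie within introns of pantothenate kinase genes, whose products start the synthesis of coenzyme A, the carrier of fatty acids. In goat mammary epithelial cells miR-103 has been reported to promote milk fat accumulation. miR-26a and miR-26b also share a seed and lie within genes of the CTDSP phosphatase family, and in goat mammary epithelial cells they have been reported to act on genes of fatty acid and triacylglycerol synthesis together with these host genes. For miR-26 the 5p arm is the usual guide strand and the 3p arm the passenger strand that is mostly degraded.

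Reads on miRNAs numbered 3108495 to 8739602 per library, out of 19174206 to 25445687 reads in the table. Levels are in CPM, the count scaled to the miRNA reads of its library with TMM factors. KD553 replicate 2 stood apart. It had the largest share of reads on RF identifiers, 26.3%, against 4.81% to 16.2% in the other 9 libraries. It also had the fewest miRNAs with a count (456). Its sum of blood cell markers was the largest (2124 CPM, against 180 to 1089 CPM). Of these markers, chi-miR-223-3p (1018 CPM) and chi-miR-150 (743 CPM) were highest in KD553 replicate 2. chi-miR-451-5p (337 CPM, against 979 CPM in Lv3NC replicate 1) and chi-miR-144-3p (0.292 CPM, against 5.19 CPM in Lv5NC replicate 1) were not. Most results on KD553 are therefore also given without replicate 2. Means of single miRNAs of the lists include it. Libraries of KD553 are numbered as in the table header, since its 2 titles and descriptions disagree on the number. Of the epithelial marker names looked for, 8 rows were listed and they summed to 9.81 to 85.3 CPM per library. The 85.3 CPM was in KD553 replicate 2, and the other libraries had at most 29.4 CPM. The 11 stromal rows summed to 11529 to 23891 CPM. The epithelial markers were thus scarce in cells labelled as mammary gland.

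The 6 miRNAs covered a wide range of levels. chi-miR-26a-5p was by far the most abundant, at 5263 ± 1692 CPM (SD, n = 10), rank 30 of the 369 known miRNAs. chi-miR-26b-5p averaged 348 ± 388 CPM (rank 76), chi-miR-103-3p 274 ± 147 CPM (rank 85) and chi-miR-107-3p 199 ± 93.0 CPM (rank 91). As a scale, the most abundant miRNAs of these libraries were chi-miR-222-3p at 157861 CPM, chi-let-7b-5p at 150032 CPM and chi-miR-193b-3p at 57239 CPM. chi-miR-26a-5p held 78.7% to 90.8% of the summed level of the 6 miRNAs in every library. The order of the other 3 guide strands was not fixed, since their ranges over the libraries overlapped. The passenger strands were rare. chi-miR-26b-3p averaged 7.47 ± 5.95 CPM (rank 194), and chi-miR-26a-3p had 43 reads in all 10 libraries together and averaged 0.787 CPM (rank 267). A miRNA was tested when it reached 5 CPM in at least 2 libraries, which 448 miRNAs did. Of the 6, chi-miR-26a-3p reached it in 0 libraries and was not tested.

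chi-miR-103-3p had its highest mean level in the knockdown and its lowest in the control virus of the knockdown. Its level was 315 and 609 CPM in the KD553 libraries and 116 and 137 CPM in the Lv3NC libraries. It was 275 and 354 CPM in Blank, 129 and 247 CPM in Lv5NC, and 216 and 344 CPM in OV55666. Both Lv3NC libraries lay below both Blank and both KD553 libraries, and the KD553 and Blank ranges overlapped. By mean level the order was KD553 (462 ± 208 CPM, SD, n = 2), Blank (314 ± 55.7), OV55666 (280 ± 90.6), Lv5NC (188 ± 83.6) and Lv3NC (126 ± 14.8). Each group overlapped its neighbour in this order.

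chi-miR-26b-5p followed the same order of groups. It stood at 291 and 1433 CPM in KD553, at 259 and 362 CPM in Blank and at 160 and 296 CPM in OV55666. It stood at 172 and 213 CPM in Lv5NC and at 134 and 159 CPM in Lv3NC. Of the neighbouring groups, Lv5NC and Lv3NC did not overlap, and the others did. KD553 replicate 2 was the highest of the 10 libraries, 4.92-fold above the other KD553 library, whereas libraries of 1 group differed 1.19-fold to 1.85-fold in the other 4 groups.

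chi-miR-107-3p, the near twin of miR-103, had another order. It stood at 431 and 178 CPM in Blank, at 239 and 238 CPM in Lv3NC and at 139 and 216 CPM in KD553. It was lower in OV55666, at 120 and 172 CPM, and in Lv5NC, at 133 and 125 CPM. Lv3NC, the group with the lowest mean of chi-miR-103-3p, had both libraries above both KD553 libraries for chi-miR-107-3p. The other neighbouring groups in the order of its means overlapped. The Blank libraries differed 2.41-fold for chi-miR-107-3p, and 1.29-fold in the opposite direction for chi-miR-103-3p.

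chi-miR-26a-5p varied least, with a highest level 2.75-fold above the lowest, against 5.26-fold for chi-miR-103-3p and 10.7-fold for chi-miR-26b-5p. Its level was 6049 and 7740 CPM in Blank, 4547 and 8385 CPM in KD553 and 4263 and 5352 CPM in Lv3NC. It was 3920 and 5068 CPM in OV55666 and 3048 and 4258 CPM in Lv5NC. Each group overlapped its neighbour in the order of the means. Both libraries of Lv5NC, OV55666 and Lv3NC lay below both Blank libraries, while those of KD553 lay on either side of the Blank range.

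**Figure D1:**
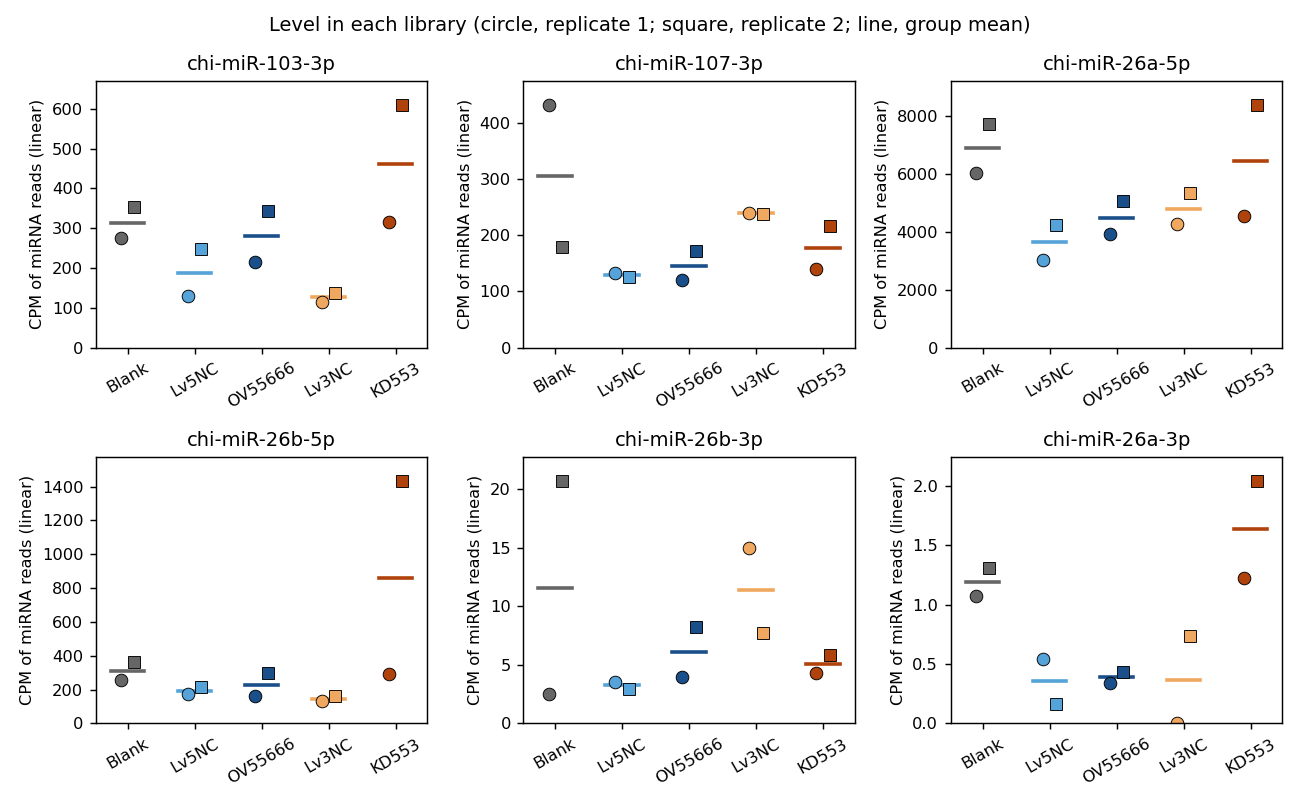
Level of each of the 6 miRNAs in the 10 libraries, in CPM of miRNA reads on linear axes that start at 0, by group (circle, replicate 1; square, replicate 2; horizontal line, mean of the 2 libraries). chi-miR-103-3p and chi-miR-26b-5p have their lowest mean in Lv3NC and their highest library in KD553 replicate 2. The 2 Lv3NC libraries of chi-miR-107-3p lie above both KD553 libraries.

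Whether any of the 5 groups differed was asked first. In limma's F test over the 5 group means no tested row of the 6 passed an adjusted p of 0.05 (Benjamini-Hochberg over 448 miRNAs). In that test 0.223% of the miRNAs passed, which is 1 miRNA, chi-miR-328-3p. The smallest adjusted p among the 6 was 0.476, for chi-miR-103-3p and chi-miR-26b-5p. Group means held 76.5% of the variance of chi-miR-103-3p on the log2 scale. For chi-miR-26b-5p, chi-miR-26a-5p, chi-miR-107-3p and chi-miR-26b-3p the share was 62.8%, 61.5%, 60.7% and 36.2%. Means of 2 libraries hold part of the variance even where groups do not differ. For chi-miR-103-3p an exact permutation test over the 945 ways of pairing the libraries gave p = 0.0847, where 0.00106 is the smallest p it can give. The exact p was 0.154 for chi-miR-26b-5p, 0.235 for chi-miR-26a-5p, 0.247 for chi-miR-107-3p and 0.614 for chi-miR-26b-3p, and adjusted over these 5 tests the smallest was 0.308.

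Knockdown was compared with its control virus. chi-miR-103-3p was higher in KD553 than in Lv3NC by 1.79 on the log2(CPM + 1) scale (SE 0.52, 95% interval 0.63 to 2.96). Both KD553 libraries were above both Lv3NC libraries, and its p was 4th smallest of the 448. The adjusted p was 0.524 with limma, so it did not pass the threshold. For chi-miR-26b-5p the difference was 2.14 (SE 0.70, 95% interval 0.57 to 3.71, limma adjusted p = 0.524), again with both KD553 libraries higher. chi-miR-26a-5p differed by 0.37 (SE 0.42) with overlapping groups, and by -0.20 when scaled to all reads of the table. chi-miR-107-3p differed by -0.46 (SE 0.52) and chi-miR-26b-3p by -0.97 (SE 0.93), each with both KD553 libraries below both Lv3NC libraries. In this comparison 0.0% of the 448 miRNAs passed with limma, 36 had an unadjusted p under 0.05, and 0 passed with voom weights. Groups did not overlap for 4 of the 5 tested rows, 2 higher and 2 lower, against 31.5% of all tested miRNAs.

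The size of these differences rested in part on KD553 replicate 2. Without it chi-miR-103-3p differed by 1.31 and chi-miR-26b-5p by 0.98, while chi-miR-26a-5p came to -0.082 and chi-miR-107-3p to -0.78. With KD553 replicate 2 as the only knockdown library, chi-miR-26b-5p differed by 3.30 and passed the threshold (limma adjusted p = 0.0163, against 0.0163 to 0.998 over all its alternatives). That fit assumes that the lone library varies like the other groups, and 15 of the miRNAs tested in it passed. With the share of RF reads as a covariate chi-miR-103-3p differed by 1.17 and chi-miR-26b-5p by 0.95. Across the 10 libraries the level of chi-miR-26b-5p correlated with the RF share at r = 0.76, that of chi-miR-26a-5p at 0.72, that of chi-miR-103-3p at 0.64 and that of chi-miR-107-3p at 0.42, a description over libraries that share depth and scaling. The part of the RF share and of the blood markers in the results was not tested.

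The control virus of the knockdown was itself compared with untreated cells. For chi-miR-103-3p both Lv3NC libraries were below both Blank libraries, with a log2 fold change of -1.30 (SE 0.52, 95% interval -2.47 to -0.14). It did not pass the threshold (limma adjusted p = 0.793). chi-miR-26b-5p had a log2 fold change of -1.06 (SE 0.70), chi-miR-26a-5p of -0.52 (SE 0.42), chi-miR-107-3p of -0.22 (SE 0.52) and chi-miR-26b-3p of 0.44 (SE 0.93). Groups did not overlap for 3 of the 5, all lower in Lv3NC, against 35.0% of all tested miRNAs, and 0.223% of the miRNAs passed. KD553 and Blank were compared directly, and there the groups overlapped for each of the 5 rows, where 42.4% of all tested miRNAs did not overlap and 0.223% passed. The log2 fold change of KD553 against Blank was 0.49 (SE 0.52) for chi-miR-103-3p and 1.08 (SE 0.70) for chi-miR-26b-5p, and without KD553 replicate 2 they were -0.011 and -0.099. For chi-miR-26a-5p it was -0.15 (SE 0.42) and for chi-miR-107-3p -0.67 (SE 0.52). The comparisons with Lv3NC share its libraries, and those with Blank share theirs, so they are not independent of each other.

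Overexpression of lncRNA55666 was compared with the Lv5NC virus. The log2 fold change was 0.61 for chi-miR-103-3p (SE 0.52, 95% interval -0.56 to 1.77), 0.31 for chi-miR-26a-5p (SE 0.42), 0.19 for chi-miR-26b-5p (SE 0.70) and 0.15 for chi-miR-107-3p (SE 0.52). Groups overlapped for each of these guide strands, and their limma adjusted p lay between 0.800 and 0.938. chi-miR-26b-3p differed by 0.67 (SE 0.93), with 3.93 and 8.23 CPM in OV55666 above 3.55 and 2.97 CPM in Lv5NC, and it was the only 1 of the 5 whose groups did not overlap, against 48.2% of all tested miRNAs. In this comparison 0.223% of the miRNAs passed. The direction of 3 of them turned with the processing. With the RF share as a covariate chi-miR-26b-5p was -0.84, chi-miR-26a-5p -0.15 and chi-miR-107-3p -0.38. Without OV55666 replicate 2 chi-miR-26b-5p was -0.26 and chi-miR-107-3p -0.11, and with no TMM factor chi-miR-107-3p was -0.030. A p that misses the threshold does not show that overexpression left these miRNAs unchanged, since the intervals span more than a log2 unit on either side for chi-miR-26b-5p and chi-miR-107-3p.

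Against Blank, the Lv5NC virus had lower mean values for all 5 rows, though chi-miR-26b-3p turned to 0.27 without Blank replicate 2 and chi-miR-26b-5p to 0.38 with the RF share in the fit. The log2 fold change was -1.10 for chi-miR-107-3p (SE 0.52), -0.93 for chi-miR-26a-5p (SE 0.42), -0.80 for chi-miR-103-3p (SE 0.52), -0.67 for chi-miR-26b-5p (SE 0.70) and -1.04 for chi-miR-26b-3p (SE 0.93). Groups did not overlap for the 4 guide strands, all lower in Lv5NC, against 46.7% of all tested miRNAs. With limma 0.0% of the miRNAs passed, 34 had an unadjusted p under 0.05, and 0 passed with voom weights. OV55666 against Blank gave -0.95 for chi-miR-107-3p (SE 0.52), -0.62 for chi-miR-26a-5p (SE 0.42), -0.49 for chi-miR-26b-5p (SE 0.70), -0.37 for chi-miR-26b-3p (SE 0.93) and -0.19 for chi-miR-103-3p (SE 0.52). Groups did not overlap there for 2 of the 5, chi-miR-107-3p and chi-miR-26a-5p, against 34.2% of all tested miRNAs, and 0.223% passed.

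The overexpression and knockdown effects were set against each other in the same fit. The overexpression effect minus the knockdown effect was -1.95 for chi-miR-26b-5p (SE 0.99, limma adjusted p = 0.750) and -1.18 for chi-miR-103-3p (SE 0.73, limma adjusted p = 0.750). It was 0.61 for chi-miR-107-3p (SE 0.73), -0.063 for chi-miR-26a-5p (SE 0.60) and 1.64 for chi-miR-26b-3p (SE 1.32). Without KD553 replicate 2 it was -0.77 for chi-miR-26b-5p, -0.68 for chi-miR-103-3p, 0.95 for chi-miR-107-3p and 0.41 for chi-miR-26a-5p. None of the 5 rows passed, where 0.223% of all tested miRNAs did, so the effects of raising and of lowering lncRNA55666 were not shown to differ for these miRNAs.

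**Figure D2:**
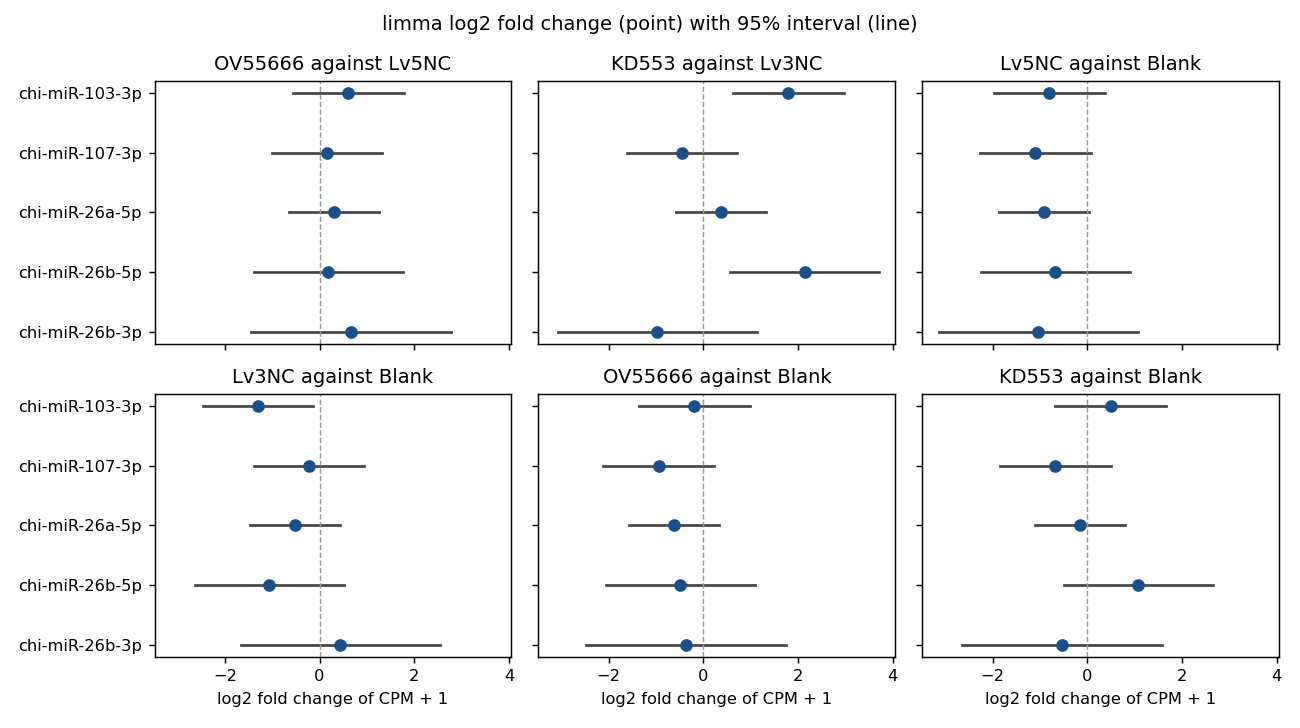
limma log2 fold change of CPM + 1 (point) with its 95% interval (line) for the 5 tested rows in 6 comparisons. The intervals of chi-miR-103-3p and chi-miR-26b-5p in KD553 against Lv3NC and of chi-miR-103-3p in Lv3NC against Blank exclude 0 before adjustment, and none passed after it.

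The balance between the near twins can be read within each library, where scaling cancels. There were 2.26 and 2.82 reads of chi-miR-103-3p for each read of chi-miR-107-3p in the KD553 libraries, and 0.484 and 0.576 in the Lv3NC libraries. The ratio was 1.81 and 2.00 in OV55666, 0.971 and 1.97 in Lv5NC, and 0.638 and 1.98 in Blank. KD553 lay above all other libraries and Lv3NC below them, and the libraries of Blank, like those of Lv5NC, lay far from each other. Each ratio rested on 958 or more reads. Its 95% exact counting interval was, for example, 0.525 to 0.630 in Lv3NC replicate 2 and 2.06 to 2.48 in KD553 replicate 1, which covers counting error only, since reads without molecular identifiers are not independent molecules. How the authors' counting split reads between such close names is not given in the sources used here, so the split is uncertain. With both names summed, the level was 455 and 825 CPM in KD553, 355 and 374 CPM in Lv3NC and 532 and 705 CPM in Blank. On that sum KD553 exceeded Lv3NC by 0.74 (log2), and not by the 1.79 of chi-miR-103-3p alone.

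The ratio of chi-miR-26a-5p to chi-miR-26b-5p also had its extremes in the knockdown pair of groups. It was 31.8 and 33.6 in Lv3NC and 15.6 and 5.85 in KD553. In the other groups it was 23.4 and 21.4 (Blank), 17.7 and 20.0 (Lv5NC) and 24.4 and 17.1 (OV55666). The Lv3NC libraries lay above all others and the KD553 libraries below, so that chi-miR-26b-5p took its smallest share of the miR-26 guide strands in Lv3NC and its largest in KD553. Here too the names are close in sequence and the split is uncertain. With both summed, KD553 exceeded Lv3NC by 0.48 (log2). The ratio of chi-miR-26b-5p to chi-miR-103-3p, by contrast, stayed between 0.743 and 1.33 in 9 libraries and reached 2.35 in KD553 replicate 2.

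**Figure D3:**
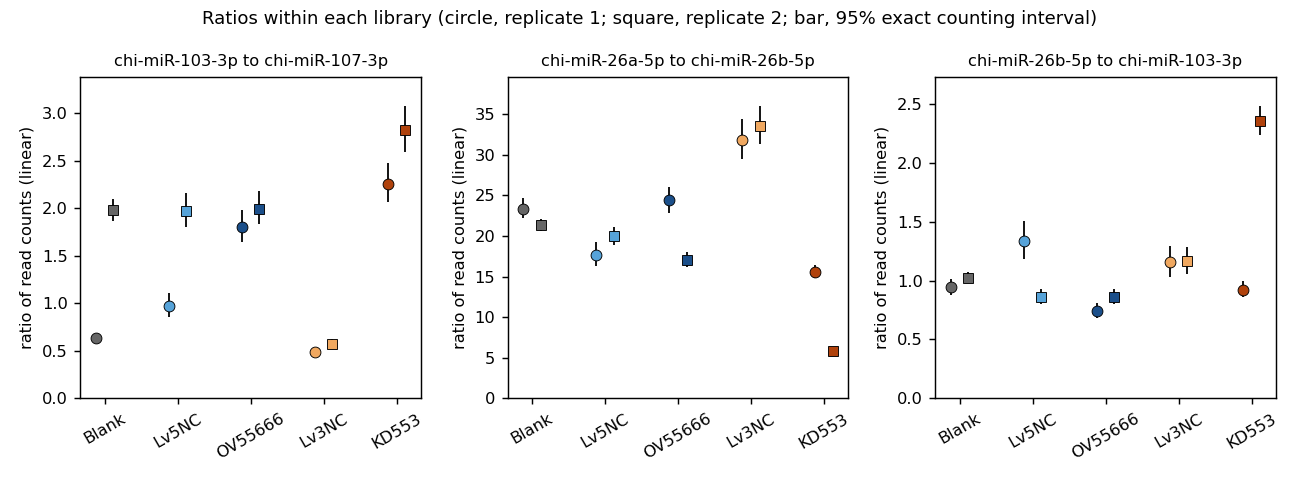
Ratio of read counts of 3 pairs of miRNAs within each library, on linear axes that start at 0 (circle, replicate 1; square, replicate 2; bar, 95% exact counting interval). For chi-miR-103-3p to chi-miR-107-3p the KD553 libraries are highest at 2.26 and 2.82 and the Lv3NC libraries lowest at 0.484 and 0.576, and for chi-miR-26a-5p to chi-miR-26b-5p this order is turned round.

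The arms of miR-26 were very unequal. For miR-26a the 3p arm made up 0.0039% to 0.027% of the reads of both arms, and Lv3NC replicate 1 had 0 reads, which allows a share of up to 0.0143% at 3 counts (Wilson 95% upper limit 0.0183%). For miR-26b the 3p share was 0.406% to 10.1%. It was 10.1% and 4.61% in Lv3NC, 5.41% in Blank replicate 2 and 0.958% in Blank replicate 1, and 1.45% and 0.406% in KD553. The Wilson 95% interval was 8.11% to 12.5% in Lv3NC replicate 1 and 0.263% to 0.626% in KD553 replicate 2. Between 13 and 206 reads of chi-miR-26b-3p stood behind these shares.

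Across the 10 libraries the levels of chi-miR-103-3p and chi-miR-26b-5p tracked each other. Pearson r of log2(CPM + 1) was 0.887 (permutation p = 3.00e-05) and Spearman rho was 0.964 (permutation p = 5.00e-05), two-sided with 100000 resamples. Adjusted over the 6 pairs of guide strands, p was 0.000180 for r and 0.000300 for rho. Without KD553 replicate 2 and Lv3NC replicate 1, the libraries farthest from the median of chi-miR-26b-5p, r was 0.887 in 8 libraries, and without KD553 replicate 2 alone it was 0.918 in 9. In each of the 5 groups the library with more chi-miR-103-3p also had more chi-miR-26b-5p and more chi-miR-26a-5p. In all 5 groups that was the library numbered 2. For chi-miR-107-3p this held in 2 of the 5 groups. The values of a library share its depth and scaling, and the permutations treat the libraries as exchangeable although they fall into groups of 2. They also take no account of the library number, and the part of that number in these correlations was not tested.

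chi-miR-103-3p did not track its near twin in this way. Between chi-miR-107-3p and chi-miR-103-3p r was 0.029 (permutation p = 0.936, adjusted 0.936) and rho was 0.030 (permutation p = 0.947, adjusted 1), and without Blank replicate 1 and OV55666 replicate 1 r was -0.095. Between chi-miR-26b-5p and chi-miR-26a-5p r was 0.760 (permutation p = 0.00602, adjusted 0.0181) and rho was 0.636 (permutation p = 0.0541, adjusted 0.0812). Without KD553 replicate 2 and Lv3NC replicate 1 it fell to 0.672 (permutation p = 0.0673). Between chi-miR-26a-5p and chi-miR-103-3p r was 0.725 (permutation p = 0.0182, adjusted 0.0363) and rho was 0.721 (permutation p = 0.0232, adjusted 0.0697). Without Blank replicate 2 and KD553 replicate 2 r was 0.440 (permutation p = 0.279), so that over libraries the relation rested on these. Within groups, the deviations from the group means correlated at 0.955 for this pair, against 0.835 for chi-miR-26b-5p with chi-miR-103-3p, 0.923 for chi-miR-26b-5p with chi-miR-26a-5p and 0.173 for chi-miR-107-3p with chi-miR-103-3p, a description over 5 pairs of libraries. chi-miR-107-3p correlated with chi-miR-26a-5p at r = 0.508 (permutation p = 0.136, adjusted 0.204) and rho = 0.661 (permutation p = 0.0445, adjusted 0.0812), and without Blank replicate 2 and KD553 replicate 2 r was 0.734. It correlated with chi-miR-26b-5p at r = 0.139 (permutation p = 0.683, adjusted 0.820) and rho = -0.0061 (permutation p = 1, adjusted 1), and r was 0.198 without KD553 replicate 2 and Lv3NC replicate 1.

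**Figure D4:**
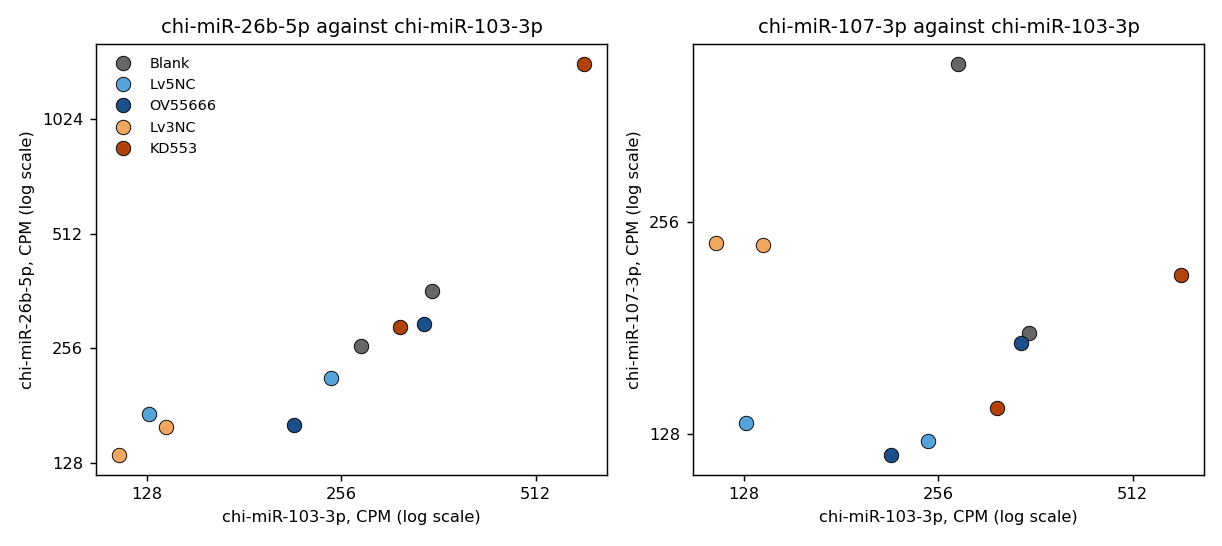
Level of chi-miR-26b-5p (left) and of chi-miR-107-3p (right) against that of chi-miR-103-3p in the 10 libraries, in CPM on log axes, with colours for the 5 groups. The points on the left rise together (r = 0.887), and those on the right do not (r = 0.029). On the left KD553 replicate 2 is at the top, above the line of the others, and without it r was 0.918 in 9 libraries.

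Among the 133 tested known miRNAs of at least 50 CPM to which each guide strand was compared, the one most like chi-miR-103-3p was chi-miR-26b-5p (r = 0.887, 10 libraries). Next came chi-miR-17-5p (0.861) and chi-miR-93-5p (0.817), members of the miR-17 family that is tied to cell proliferation, then chi-miR-15a-5p (0.801) and chi-let-7f-5p (0.793). chi-miR-107-3p was 78th in this order. Without KD553 replicate 2, r with chi-miR-103-3p was 0.766 for chi-miR-17-5p, 0.699 for chi-miR-93-5p, 0.719 for chi-miR-15a-5p and 0.637 for chi-let-7f-5p. It was 0.918 for chi-miR-26b-5p. Most like chi-miR-26b-5p were chi-miR-15a-5p (0.966), chi-let-7f-5p (0.918), chi-miR-424-5p (0.889), chi-let-7g-5p (0.888) and chi-miR-103-3p (0.887). Part of this likeness was KD553 replicate 2, where each of these 4 was highest. Without that library the values were 0.841 for chi-miR-15a-5p, 0.724 for chi-let-7f-5p, 0.471 for chi-let-7g-5p and 0.304 for chi-miR-424-5p, against 0.918 for chi-miR-103-3p.

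chi-miR-26a-5p was most like chi-miR-25-3p (0.940), chi-miR-93-5p (0.885), chi-miR-449a-5p (0.813), chi-miR-29b-5p (0.810) and chi-miR-17-5p (0.770), with chi-miR-26b-5p 7th. Without KD553 replicate 2 these values were 0.633 to 0.915. chi-miR-107-3p had no close match. Its highest values were 0.616 for chi-miR-29b-5p, 0.612 for chi-miR-16a-5p, 0.609 for chi-miR-25-3p, 0.581 for chi-miR-23a and 0.579 for chi-miR-92b. These are descriptions over 10 libraries that share depth and scaling.

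The other miRNAs reported in ruminant mammary fat synthesis were counted as a list, of which 64 rows were in the table and 48 were tested. Its 42 names were matched with any arm suffix, so rows of both arms are counted, whichever arm was reported. In KD553 against Lv3NC 40 were higher and 8 lower, with a median log2 fold change of 0.62, beside -0.18 over all 448 tested miRNAs and 0.29 over the 222 known ones. Of all 448, 192 were higher and 248 lower. None of the list passed the threshold with limma, where 0.0% of all tested miRNAs did. An unadjusted p under 0.05 was reached by 5 of the 48 and by 36 of the 448. Without KD553 replicate 2 the list had 37 higher and 10 lower of 47 tested and a median of 0.38, beside 0.20 over known miRNAs. chi-miR-29a-3p, known for its action on collagen genes, stood at 6912 ± 1484 CPM in KD553 and 2514 ± 1077 CPM in Lv3NC (SD, n = 2). The same 2 groups had 117 ± 13.6 and 31.0 ± 27.8 CPM of chi-miR-27b-5p, and 96.6 ± 37.7 and 34.2 ± 18.2 CPM of chi-miR-17-5p. chi-miR-15a-5p stood at 259 ± 284 and 47.6 ± 9.93 CPM, and chi-miR-21-5p at 43759 ± 45073 and 9423 ± 3635 CPM. For the last 2 the spread within KD553 was as large as the level.

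In OV55666 against Lv5NC the list had 26 higher and 22 lower values and a median of 0.12, beside -0.083 over all and 0.16 over known miRNAs. Of all 448, 207 were higher and 241 lower. In the list 0 of the 48 passed with limma, where 0.223% of all did. An unadjusted p under 0.05 was reached by 3 of the 48 and by 44 of the 448. chi-miR-221-5p stood at 174 ± 11.5 CPM in OV55666 and 34.1 ± 11.5 CPM in Lv5NC (SD, n = 2), and chi-miR-29c-5p at 123 ± 14.6 and 48.3 ± 12.1 CPM. chi-miR-24-3p stood at 1945 ± 1105 and 11211 ± 5778 CPM, chi-miR-221-3p at 3823 ± 625 and 2525 ± 885 CPM, and chi-miR-27b-3p at 1684 ± 2381 and 5625 ± 3346 CPM. The mean of chi-miR-27b-3p in OV55666 joins 3367 CPM in replicate 1 and 0.433 CPM, close to missing, in replicate 2. Against Blank, most of the 48 were lower with either control virus, 37 in Lv5NC (median -0.36) and 35 in Lv3NC (median -0.50), beside medians over known miRNAs of -0.24 and -0.25, and 0 passed with limma (5 with an unadjusted p under 0.05 in each). Of all 448, 0.0% passed and 34 had an unadjusted p under 0.05 in Lv5NC against Blank, and 0.223% and 25 in Lv3NC against Blank. Lower values were found for 200 of the 448 in Lv5NC and for 250 in Lv3NC.

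miR-103 and miR-107 are counted with the guide strands of miR-15, miR-16, miR-195, miR-424, miR-497 and miR-503 as a group that shares part of the seed. Of the 5p arms of these others 7 rows were listed and 6 tested, 4 of which are also in the milk fat list. In KD553 against Lv3NC 6 were higher and 0 lower (median 0.62, beside 0.29 over known miRNAs), and without KD553 replicate 2 the split was 5 and 1 (median 0.29, beside 0.20). With the 3p arms, which do not carry the shared seed, the counts were 7 and 1 of 8 tested, and 5 and 3 without that library (median 0.20). The restriction to 5p arms was chosen after the values were seen. chi-miR-16b-5p stood at 12134 ± 3041 CPM in KD553 and 6838 ± 2664 CPM in Lv3NC (SD, n = 2), and chi-miR-16a-5p at 4274 ± 69.1 and 3354 ± 495 CPM. chi-miR-424-5p stood at 337 ± 437 and 34.4 ± 4.78 CPM, and its other arm chi-miR-424-3p at 210 ± 67.5 and 351 ± 33.5 CPM. The KD553 mean of chi-miR-424-5p joins 646 CPM in replicate 2 and 28.0 CPM in replicate 1. The latter lay below both Lv3NC libraries (37.7 and 31.0 CPM). In OV55666 against Lv5NC 5 of the 5p arms were higher and 1 lower (median 0.34, beside 0.16 over known miRNAs), with chi-miR-16b-5p at 6657 ± 2580 and 4725 ± 1151 CPM and chi-miR-15b-5p at 2205 ± 180 and 1627 ± 349 CPM. In both comparisons 0 of the 6 passed with limma, where 0.0% of all tested miRNAs did in the knockdown and 0.223% in the overexpression comparison. An unadjusted p under 0.05 was reached by 0 of the 6 in either, and by 36 and 44 of the 448.

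**Figure D5:**
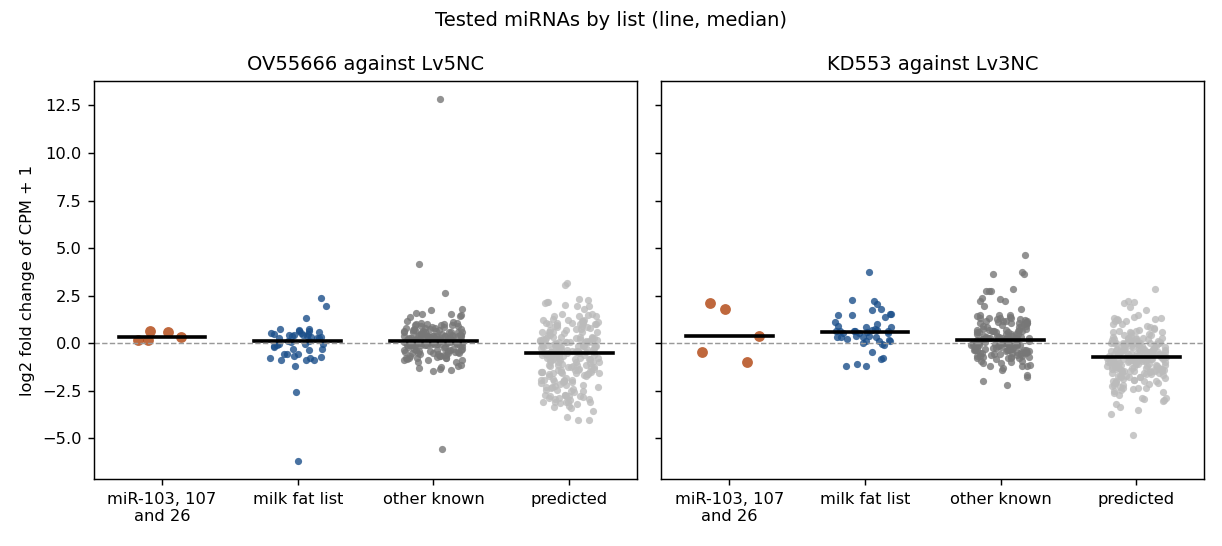
Log2 fold change of CPM + 1 of each tested miRNA (point) in OV55666 against Lv5NC and in KD553 against Lv3NC, for the 5 rows of miR-103, miR-107 and miR-26, the 48 of the milk fat list, the other known miRNAs and the predicted ones (line, median). In the knockdown comparison the milk fat list has a median of 0.62 and the 5 rows lie on both sides of 0, and in the overexpression comparison the list has a median of 0.12.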

How the data were processed

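Small RNA libraries of 10 goat mammary cell samples were analysed. The authors deposited 1 table with a read count and a TPM value for each identifier and library. The count columns are headed Count and hold whole numbers only, and they were taken to be read counts without normalization. They were treated as a unit of its own (other), since 11323 of their 22330 cells carry a mark for missing. No cell is 0 and the smallest count is 1, so missing marks were read as 0, and the main fit used no model for plain count tables. Voom weights, which are derived from the counts, served as an alternative only. In the 6 deposited TPM columns that could be tied to a library, each value of the 6 miRNAs matched its count times 1 factor per library to within 0.00498, and they served only for that check. The other 4 per-sample columns were not used: the TPM columns of Lv3NC share 1 name, and those of KD553 could not be tied to a sample. The sources used here name no aligner, miRNA database or build. No sequence is printed.

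Counts were scaled to CPM of miRNA reads (known and predicted) with TMM factors (trims of 30% and 5%). miRNAs at 5 CPM or more in at least 2 libraries (448) were fitted with limma 3.58.1 and statmod 1.5.0 (R 4.3.3) on log2(CPM + 1), with 5 group means, an abundance trend and robust moderation and 5 residual degrees of freedom. Tests of fold changes were two-sided, and they and the F test were adjusted by Benjamini-Hochberg over all 448, with a threshold of 0.05. The exact permutation tests among the 5 groups were adjusted over the 5 tested rows, and the correlations over 6 pairs. A test of 2 libraries against 2 alone cannot give an exact p under 0.333. Intervals of shares are Wilson 95% intervals and those of ratios exact ones.

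All rows found by name are described. For each with a mean of at least 50 CPM, the 5 known miRNAs most like it are named, and of each list up to 5 of smallest p at that mean. The members and lists were chosen with earlier results of these data known. Alternatives were another pseudocount, other filters and scalings, a replicate block, voom weights, known miRNAs only, only the groups compared, near-identical miRNAs summed, the RF share as a covariate, and leaving out each library. Counts of lists and correlations without KD553 replicate 2 were added after seeing the data. Same-numbered libraries deviated together with correlations of -0.0213 to 0.319 over the 10 pairs of groups, most of them above 0.1. The main fit did not pair libraries by number, and these correlations do not exclude such a pairing.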

Additional observations from a re-analysis of the deposited data

How the results depend on the processing

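The guide strands had 472 reads or more in each library, chi-miR-26b-3p as few as 13 and chi-miR-26a-3p as few as 0. What depth adds to the spread was not tested. Under 12 alternative settings and 10 left-out libraries, 39 of 761 fold changes of the tested rows changed sign, and 1 of 865 values (fold changes and tests among the 5 groups) passed the threshold. The cause was not tested. Another scaling shifted the median of all miRNAs by more than 0.1 (log2) in several comparisons, by -0.53 in KD553 against Lv3NC and -0.87 in KD553 against Blank when scaled to all reads of the table, and by -0.35 in Lv3NC against Blank with no TMM factor.

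In KD553 against Lv3NC, chi-miR-103-3p ranged from 1.17 to 1.79 over the settings that counted it by itself. With a library left out it ranged from 1.31 to 2.28. For chi-miR-26b-5p these ranges were 0.95 to 2.14 and 0.98 to 3.30. The sum of chi-miR-103-3p and chi-miR-107-3p differed by 0.74, and that of chi-miR-26a-5p and chi-miR-26b-5p by 0.48. chi-miR-26a-5p turned to -0.20 when scaled to all reads and -0.16 with the RF covariate (left-out range -0.082 to 0.83), and chi-miR-107-3p to 0.74 when summed with chi-miR-103-3p. In OV55666 against Lv5NC the RF covariate gave -0.84 for chi-miR-26b-5p, -0.15 for chi-miR-26a-5p and -0.38 for chi-miR-107-3p, which was -0.030 with no TMM factor. The left-out ranges were -0.26 to 0.58 for chi-miR-26b-5p and -0.11 to 0.37 for chi-miR-107-3p. In KD553 against Blank, summing gave -0.072 for miR-26 and -0.019 for miR-103 with miR-107, and the RF covariate gave -0.20 for chi-miR-26b-5p, 0.074 for chi-miR-26b-3p and -0.18 for chi-miR-103-3p, which was -0.44 when scaled to all reads. Left-out ranges there were -0.099 to 2.23 (chi-miR-26b-5p), -1.87 to 0.77 (chi-miR-26b-3p), -0.62 to 0.30 (chi-miR-26a-5p) and -0.011 to 0.97 (chi-miR-103-3p). The RF covariate gave 0.38 for chi-miR-26b-5p in Lv5NC against Blank. Left-out ranges that crossed 0 were -2.37 to 0.27 for chi-miR-26b-3p in Lv5NC against Blank, -0.90 to 1.74 for chi-miR-26b-3p and -0.86 to 0.39 for chi-miR-107-3p in Lv3NC against Blank, and -1.69 to 0.96 for chi-miR-26b-3p and -0.54 to 0.028 for chi-miR-103-3p in OV55666 against Blank. For the overexpression effect minus the knockdown effect, chi-miR-26a-5p was 0.11 with no filter, 0.013 with a filter at 50 CPM, 0.62 scaled to all reads, 0.077 with known miRNAs only and 0.0094 with the RF covariate (left-out range -0.50 to 0.41), and chi-miR-107-3p was -0.31 when summed.

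The number of miRNAs past the threshold was 0 or 1 in every comparison. With a library left out it ranged from 1 to 3 in OV55666 against Lv5NC, 0 to 15 in KD553 against Lv3NC, 0 to 2 in Lv5NC against Blank, 1 to 2 in Lv3NC and in OV55666 against Blank, 1 to 9 in KD553 against Blank, 1 to 7 for the difference and 1 to 3 among the 5 groups. The 15, 9 and 7 came without KD553 replicate 1, and the upper ends in OV55666 against Lv5NC, in Lv5NC against Blank and among the 5 groups without Lv5NC replicate 2. Without Blank replicate 1 or OV55666 replicate 1 no count was above 3. Voom weights gave 0 in OV55666 against Lv5NC, in KD553 against Blank and for the difference. A pseudocount of 5 gave 1 in KD553 against Lv3NC and 2 in Lv3NC against Blank, and no filter gave 1 and 2 there, 2 in KD553 against Blank and 7 among the 5 groups. Scaling to all reads gave 3 in KD553 against Lv3NC, 1 in Lv5NC against Blank, 16 in KD553 against Blank and 22 among the 5 groups. Same-numbered libraries correlated above 0.1 in most but not all pairs of groups, and the block, left out of the main fit, is given here only. The replicate block gave 3 in KD553 against Blank and 5 among the 5 groups. For chi-miR-103-3p in KD553 against Lv3NC it took the SE from 0.52 to 0.42 and limma's adjusted p to 0.167, and it put none of the 5 tested rows past the threshold.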
